A study of Mus musculus with 18 samples.

Results

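The 10 genes described here are markers of tubular injury in the mouse kidney: Tnfrsf12a, Havcr1, Vcam1, Cd44, Lcn2, Spp1, Clu, Sox9, Krt8 and Krt18. They were found by symbol among the 19545 gene rows of a kidney RNA-seq table, and all 10 were there, 1 row each. The table holds FPKM, fragments per kilobase of transcript scaled to the mapped fragments of the library, for 18 kidney libraries of ICR mice aged 10 weeks, an outbred stock, in 6 groups of 3. HS_AOS_FMT kidneys came from mice given a high fat diet, STZ (streptozotocin, a toxin of the pancreatic beta cells) and an FMT (transfer of faecal microbiota) that the labels tie to AOS at 10 mg/kg. HS_control_FMT mice had the diet, STZ and a control FMT. HS_AOS mice had the diet, STZ and AOS at 10 mg/kg, and for HS mice the labels name the diet and STZ only. For AOS mice they name AOS at 10 mg/kg only, and the last group is labelled control only. The labels do not spell out AOS, and they say nothing of the donors of the transfers, of sex, of blood glucose or of pooling. Nor do they state whether a group's 3 libraries are 3 animals. The p-values below set differences between groups against the spread among libraries, which may be technical and not a spread between animals.

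When cells of the kidney tubule are damaged, they lose transport functions and switch on a set of surface proteins, secreted proteins and filament proteins that the healthy tubule makes little of. Havcr1 (KIM-1) and Lcn2 (NGAL) are the best known of them and are measured in urine as signs of acute damage. In the healthy kidney Spp1, Clu and Krt8 are also made by distal segments, so these have a level of their own before any damage. Tnfrsf12a (Fn14) is the receptor for the cytokine TWEAK, and its transcript is induced quickly in stressed epithelium.

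The promoters of Tnfrsf12a, Krt8 and Krt18 are shown because Tnfrsf12a is the member whose level separated the groups, and because Krt8 and Krt18 are partner genes on the same chromosome whose levels did not run together. RefSeq promoter windows of GRCm38.p6 were matched to 7 of the 10 members by symbol, each running from 250 bases before the transcription start to 50 after it. The Tnfrsf12a window is chr17:23677400-23677699 on the minus strand, the Krt8 window chr15:102004293-102004592 on the minus strand and the Krt18 window chr15:102027966-102028265 on the plus strand. Capitals mark the GC box GGGCGG and the TATA box TATAAA, searched on both strands.
Tnfrsf12a: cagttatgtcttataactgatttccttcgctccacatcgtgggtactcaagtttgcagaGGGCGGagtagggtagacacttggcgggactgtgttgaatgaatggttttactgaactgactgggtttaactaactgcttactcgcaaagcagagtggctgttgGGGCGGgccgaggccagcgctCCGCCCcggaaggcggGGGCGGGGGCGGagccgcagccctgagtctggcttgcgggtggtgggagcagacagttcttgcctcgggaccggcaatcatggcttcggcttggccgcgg
Krt8: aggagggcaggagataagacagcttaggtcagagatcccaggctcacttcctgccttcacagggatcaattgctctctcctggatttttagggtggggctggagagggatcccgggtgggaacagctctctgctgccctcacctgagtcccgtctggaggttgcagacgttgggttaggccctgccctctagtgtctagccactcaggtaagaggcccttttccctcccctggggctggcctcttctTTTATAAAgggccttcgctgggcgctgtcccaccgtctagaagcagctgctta
Krt18: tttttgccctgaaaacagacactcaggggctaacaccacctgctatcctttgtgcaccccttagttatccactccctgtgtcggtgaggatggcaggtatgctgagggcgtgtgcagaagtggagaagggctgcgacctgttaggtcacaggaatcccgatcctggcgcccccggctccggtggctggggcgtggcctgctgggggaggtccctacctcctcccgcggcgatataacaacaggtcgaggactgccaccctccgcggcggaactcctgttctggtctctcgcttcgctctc
The Tnfrsf12a window held 5 GC boxes, the first 191 and the last 44 bases before the start, and 35.7% of 32851 RefSeq promoters hold at least 1. The Krt8 window held 2 TATA boxes that overlap on opposite strands at the RefSeq start site (13.6% of promoters hold at least 1). In GENCODE the Krt8 gene begins farther upstream, at 102004482, so the 2 annotations place its start differently. The Krt18 window held neither box. The windows of Lcn2 and Cd44 held 1 GC box each, and that of Spp1 1 TATA box. No member window held the AP-1 letters TGANTCA (7.81% of promoters), the cyclic AMP response element TGACGTCA (1.79%), the amino acid response letters TGATGNAA (3.97%), the NF-kB letters (GGG, any 3 bases, then TTCC; 5.56%) or the TEAD letters GGAATG (14.7%). Such matches describe letters and say nothing of what binds there.

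Control library 3 stood apart and is shown apart below. It held the highest of the 18 values for 6 of the 9 members that could be tested (66.7%), and for 33.7% of all 12385 tested genes. The ratio of control 3 to the mean of control libraries 1 and 2 was 9.98 for Havcr1, 9.11 for Lcn2, 5.34 for Spp1, 4.18 for Cd44, 3.1 for Krt18 and 2.69 for Clu. For Tnfrsf12a it was 1.21 and for Krt8 1.37. In the same library 24 of 38 other tested injury genes had their highest value, and 8 of 18 healthy proximal tubule genes had their lowest (6.75% of all tested genes). Peaks in control 3 were not particular to injury genes. It also held the highest value for 8 of 10 thick ascending limb, 10 of 14 collecting duct, 6 of 6 podocyte and 4 of 4 mesothelium genes. For fibroblast and pericyte genes it did so for 3 of 10, and for fat genes for 0 of 6. The 13 adrenal genes summed to 993 FPKM there, to 642 FPKM in HS library 3 and to 442 FPKM in HS_AOS_FMT library 2, against 1.69 to 76.3 FPKM in the other 15 libraries. Genes of the testis and germ cells summed to 28.7 to 41.2 FPKM in the 3 control libraries and to at most 0.47 FPKM in any other group, so every comparison with control also sets libraries that hold such transcripts against libraries that do not. The 18 healthy proximal tubule genes, which mark the labelled tissue, summed to between 6894 and 12273 FPKM in every library. What part these differences have in the members' values was not tested.

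**Figure D1:**
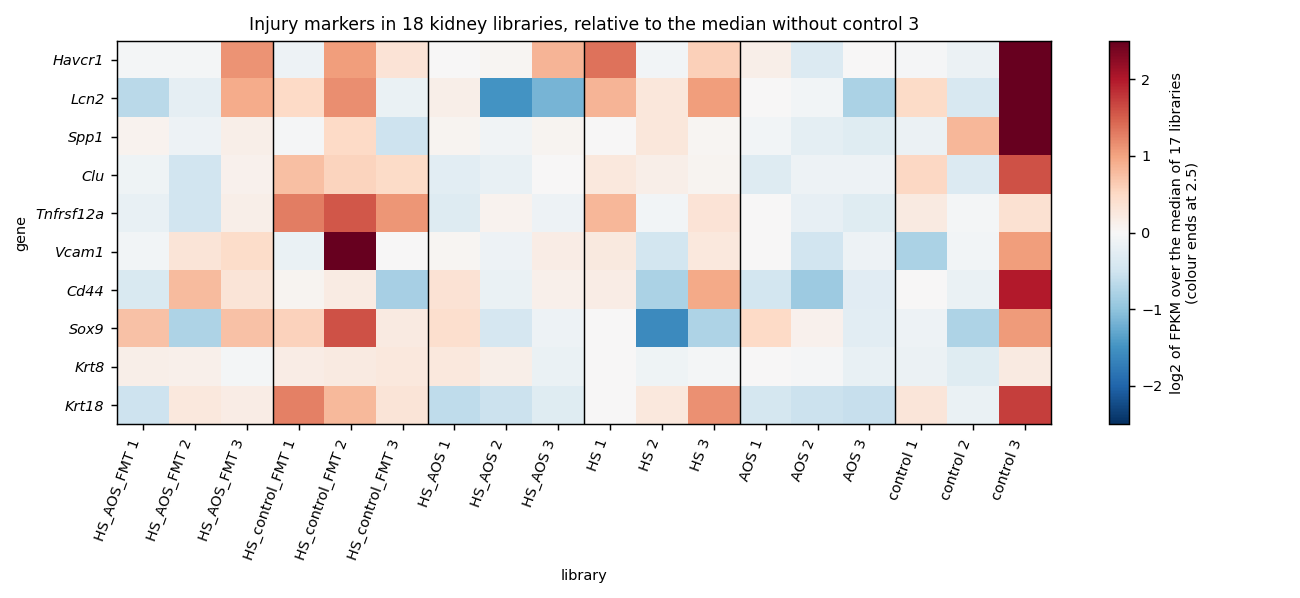
Each square is 1 member (rows) in 1 library (columns, grouped by treatment), coloured by log2 of its FPKM over that gene's median in the 17 libraries without control 3. Control 3 is dark for Havcr1, Lcn2 and Spp1, the 3 HS_control_FMT libraries are red for Tnfrsf12a, and Krt8 is pale throughout.

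Of the 10 members, 9 reached 1 FPKM in at least 3 of the 18 libraries and were tested with limma on log2(FPKM + 1), with Benjamini-Hochberg adjustment over all 12385 genes. Fold changes below are on that log2 scale, which understates the change of genes with low FPKM. Sox9 reached 1 FPKM in 0 libraries, and Cd44 did so in 3, control 3 among them, so that 8 members could be tested without control 3. In comparisons that do not involve the control group, leaving out control 3 kept the log2 change of each gene. The adjusted p then moved through the spread estimate shared by all groups and the adjustment over all genes. Read counts are not part of the table, so the depth behind each value is unknown. In a whole kidney, fewer cells of a type and less RNA per cell cannot be told apart.

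Among the surface receptors, Tnfrsf12a was the member that separated the groups. In the GENCODE annotation of GRCm38 the gene lies at chr17:23675445-23677468 on the minus strand. Its level stood at 31.2, 25.4 and 38.9 FPKM in HS_AOS_FMT kidneys and at 86.15, 104 and 76.3 FPKM in HS_control_FMT kidneys. HS_AOS kidneys had 28.2, 37.7 and 32.3 FPKM and HS kidneys 62.9, 34.0 and 44.8 FPKM. AOS kidneys had 35.4, 30.6 and 28.7 FPKM and control kidneys 41.6, 34.4 and 45.9 FPKM. All 3 HS_control_FMT values lay above all 15 others, a pattern that 1.08% of the tested genes shared and no other tested member did. In the order of group means, HS_control_FMT led and its values did not overlap those of HS, the group next below, whereas HS, control, HS_AOS, HS_AOS_FMT and AOS each overlapped their neighbour.

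In HS_AOS_FMT kidneys Tnfrsf12a averaged 31.8 ± 6.79 FPKM, against 88.9 ± 14.2 FPKM in HS_control_FMT kidneys (SD, n = 3 each). The log2 change was -1.46 (SE 0.202), with a limma adjusted p of 0.00341. Set against HS kidneys, HS_control_FMT kidneys had 88.9 ± 14.2 FPKM and HS kidneys 47.2 ± 14.6 FPKM (SD, n = 3 each), a rise of 0.93 (SE 0.202) with a limma adjusted p of 0.0491. That value lies close to the threshold of 0.05, and the call was lost when HS 2, HS 3 or any HS_control_FMT library was left out (adjusted p 0.0752 to 0.154). Set against control kidneys, HS_control_FMT kidneys had 88.9 ± 14.2 FPKM and control kidneys 40.6 ± 5.78 FPKM (SD, n = 3 each), a rise of 1.11 with a limma adjusted p of 0.00911. These 3 comparisons share the HS_control_FMT libraries. HS_AOS_FMT and HS_AOS kidneys did not pass against HS (log2 -0.53 and -0.48, limma adjusted p 0.181 and 0.199).

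Markers of other cells were counted in the same libraries. Of the 11 neutrophil genes, 2 were tested. The 11 summed to 2.52 to 3.97 FPKM in HS_AOS_FMT kidneys and to 6.38 to 14.9 FPKM in HS_control_FMT kidneys. The sums were 2.28 to 3.55 FPKM in HS_AOS, 3.43 to 5.61 FPKM in HS and 2.44 to 5.5 FPKM in AOS kidneys. Control kidneys had 3.78 to 12.4 FPKM, the highest in control library 1, where Tnfrsf12a was at 41.6 FPKM. In HS_control_FMT library 2, S100a8 and S100a9 held 8.34 and 4.49 FPKM of the 14.9 FPKM. S100a8, a calcium-binding protein of neutrophils and monocytes, averaged 0.557 ± 0.188 FPKM in HS_AOS_FMT kidneys and 4.87 ± 3.3 FPKM in HS_control_FMT kidneys (SD, n = 3 each; log2 -1.75, limma adjusted p 0.0361). It passed in 5 of 17 alternatives (adjusted p 0.0172 to 0.158), and the call was lost without any 1 of the HS_AOS_FMT libraries, HS_control_FMT 1 or HS_control_FMT 2. The granule and surface markers Ly6g and Elane were at 0 in all 3 HS_control_FMT libraries, and Mpo was at 0.03 FPKM or less. Healthy proximal tubule genes summed to 10117 to 11856 FPKM in HS_AOS_FMT kidneys and to 8116 to 9996 FPKM in HS_control_FMT kidneys. The part of these other cells in the Tnfrsf12a values was not tested. Without the 3 libraries richest in adrenal transcripts the fall in Tnfrsf12a was 1.32 on the log2 scale (limma adjusted p 0.018).

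Havcr1, the phosphatidylserine receptor through which injured proximal tubule cells take up dead neighbours, was low in most kidneys (chr11:46735080-46779578, plus strand). Its FPKM was 2.00, 1.98 and 4.50 in HS_AOS_FMT kidneys, 1.88, 4.26 and 2.62 in HS_control_FMT kidneys and 2.06, 2.14 and 3.72 in HS_AOS kidneys. HS kidneys had 5.30, 1.97 and 3.12 FPKM, AOS kidneys 2.27, 1.63 and 2.06 FPKM and control kidneys 2.03, 1.85 and 19.4 FPKM. Every group that had the diet and STZ held at least 1 library near 2 FPKM, the level of AOS kidneys and of control libraries 1 and 2, and all groups overlapped. The change in HS against control was -0.40 with control 3 and 0.53 without it (limma adjusted p 0.953 and 0.501), so the sign turned with that library.

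Vcam1 encodes an adhesion molecule for leukocytes and is made by endothelium, and in mice by tubule cells that fail to repair. It lies at chr3:116109949-116129688 on the minus strand, where the antisense gene Gm43109 shares 1238 of its bases. Its level was 2.49, 16.1 and 2.80 FPKM in HS_control_FMT kidneys. HS_control_FMT library 2 therefore held 9.93 times the lowest of the 17 libraries without control 3, a span wider than that of the other 9 members. The 12 libraries of HS_AOS_FMT, HS_AOS, HS and AOS kidneys lay between 2.00 and 3.84 FPKM, and the control kidneys had 1.62, 2.65 and 5.74 FPKM. No comparison called Vcam1. Its integrin partner Itga4 was between 0.25 and 0.67 FPKM in every library. Cd44 (chr2:102811141-102901665, minus strand), the hyaluronan receptor of leukocytes and of injured tubule, was under 1 FPKM in 15 of 18 libraries. Its values above that were 1.14 FPKM in HS_AOS_FMT library 2, 1.28 FPKM in HS library 3 and 2.61 FPKM in control 3, the 3 libraries that held the most adrenal transcript.

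Among the secreted proteins, Clu, a chaperone of misfolded extracellular protein, lay nearest in pattern to Tnfrsf12a among the members over the 17 libraries without control 3 (chr14:65968483-65981547, plus strand, for Clu). It held place 22 among all genes ranked by likeness to Tnfrsf12a, at a mean absolute difference of 0.443 SD of the log2 values, and without the 3 adrenal-rich libraries Krt18 was the nearest member instead (0.453 SD, place 50). Its FPKM was 115, 88.7 and 134 in HS_AOS_FMT kidneys and 209.5, 184 and 173 in HS_control_FMT kidneys. HS_AOS kidneys had 103, 109 and 124 FPKM and HS kidneys 149, 137 and 130.2 FPKM. AOS kidneys had 99.7, 114 and 114 FPKM and control kidneys 179, 98.3 and 372 FPKM. Values in HS_control_FMT lay above those in HS_AOS_FMT, HS_AOS, HS and AOS without overlap, and the control libraries, from 98.3 to 372 FPKM, overlapped every group. The means of 113 ± 22.6 FPKM in HS_AOS_FMT and 189 ± 18.8 FPKM in HS_control_FMT kidneys (SD, n = 3 each) differed by -0.76 on the log2 scale, with a limma adjusted p of 0.193. Without control 3, which is in neither of these groups, the change stayed at -0.76 and the adjusted p was 0.0206.

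Lcn2 (chr2:32384633-32388252, minus strand), which binds bacterial iron carriers and is shed by damaged tubule, was 2.25, 3.07 and 6.77 FPKM in HS_AOS_FMT kidneys, 5.07, 7.96 and 3.17 FPKM in HS_control_FMT kidneys and 3.93, 1.27 and 1.60 FPKM in HS_AOS kidneys. HS kidneys had 6.43, 4.36 and 7.34 FPKM, AOS kidneys 3.57, 3.41 and 2.06 FPKM and control kidneys 4.99, 2.72 and 35.1 FPKM. The HS_AOS values all lay below the HS values, at 2.27 ± 1.45 FPKM in HS_AOS and 6.04 ± 1.53 FPKM in HS kidneys (SD, n = 3 each). That difference of -1.17 did not pass limma (adjusted p 0.314, and 0.0748 without control 3). Spp1 (chr5:104435118-104441050, plus strand, where Gm42793 on the same strand shares 1252 bases), the matrix phosphoprotein osteopontin, had the highest FPKM of the 10 members in all 6 groups. It ran from 236 to 480.1 FPKM over the 15 libraries outside control, and the control kidneys had 307, 604 and 2434 FPKM. With all libraries no comparison called it, and without control 3 its adjusted p over the 6 groups was 0.586.

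Sox9 (chr11:112782224-112787760, plus strand), a transcription factor switched on in tubule cells that regenerate, was between 0.04 and 0.36 FPKM in all 18 libraries. The highest value was in HS_control_FMT library 2 and the next, 0.25 FPKM, in control 3. Values this low carry no test here.

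**Figure D2:**
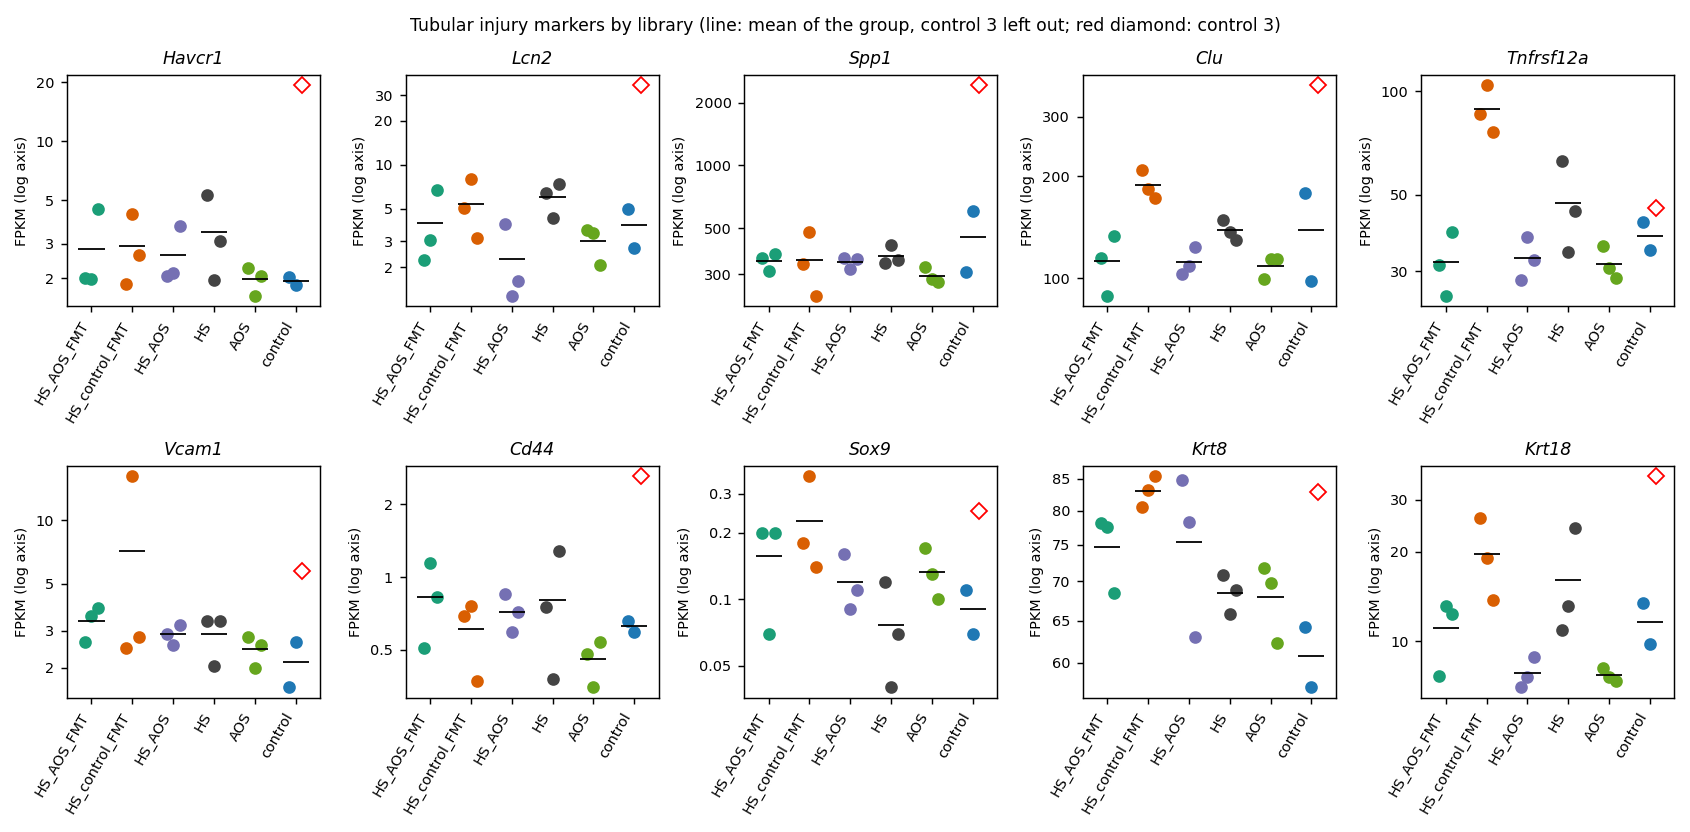
Each panel gives the FPKM of 1 member (log axis) in every library by group, with a line at the group mean without control 3 and control 3 as an open red diamond. The HS_control_FMT points for Tnfrsf12a, from 76.3 to 104 FPKM, lie above every other point, and control 3 is the top point for Havcr1, Lcn2, Spp1, Clu, Cd44 and Krt18.

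Krt8 and Krt18 encode keratins of simple epithelia that pair with each other in filaments, though not exclusively. In the same annotation they lie on chromosome 15 with 23697 bases between them, Krt8 at chr15:101996698-102004482 on the minus strand and Krt18 at chr15:102028180-102032027 on the plus strand. Krt8 varied least of all members, with the highest of 17 libraries 1.49 times the lowest, against 3.74 times for Krt18. A long non-coding gene on the strand opposite Krt8 could share its reads, since the strandedness of the libraries is not given in the sources used here. A processed pseudogene of Krt8 on chromosome 7 could share reads whatever the strandedness.

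Krt8 was at 78.15, 77.55 and 68.5 FPKM in HS_AOS_FMT kidneys, 80.6, 83.2 and 85.4 FPKM in HS_control_FMT kidneys and 84.9, 78.3 and 63.0 FPKM in HS_AOS kidneys. HS kidneys had 70.9, 65.8 and 68.85 FPKM, AOS kidneys 71.8, 69.8 and 62.3 FPKM and control kidneys 64.2, 57.3 and 83.0 FPKM. HS_control_FMT values lay above HS values without overlap, at 83.1 ± 2.4 FPKM in HS_control_FMT and 68.5 ± 2.56 FPKM in HS kidneys (SD, n = 3 each), a difference of 0.27 with a limma adjusted p of 0.313. Against control the difference of 0.30 was not called (limma adjusted p 0.199), and it was 0.45 with an adjusted p of 0.0403 without control 3.

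Krt18 was at 7.65, 13.2 and 12.4 FPKM in HS_AOS_FMT kidneys, 26.1, 19.1 and 13.7 FPKM in HS_control_FMT kidneys and 6.99, 7.56 and 8.82 FPKM in HS_AOS kidneys. HS kidneys had 10.9, 13.1 and 24.1 FPKM, AOS kidneys 8.09, 7.54 and 7.35 FPKM and control kidneys 13.5, 9.75 and 36.0 FPKM. The AOS-treated kidneys with the diet and STZ and those without were all under 9 FPKM. HS_AOS values lay below HS values without overlap, at 7.79 ± 0.936 FPKM in HS_AOS and 16 ± 7.05 FPKM in HS kidneys (SD, n = 3 each), but the difference of -0.88 did not pass limma (adjusted p 0.206, and 0.0629 without control 3). The ratio of Krt18 to Krt8 FPKM averaged 0.149 in HS_AOS_FMT, 0.238 in HS_control_FMT, 0.106 in HS_AOS, 0.234 in HS, 0.113 in AOS and 0.271 in control kidneys, and it was 0.434 in control 3. The 8 genes of the urothelium and renal pelvis, which line the outflow of the kidney and are also rich in Krt18, summed highest in HS library 3 (67.1 FPKM) and HS_control_FMT library 1 (60.6 FPKM), the libraries with the most Krt18 after control 3. The sums did not follow Krt18 in every library: control 3, with 36.0 FPKM of Krt18, had a sum of 33.0 FPKM, below HS_AOS_FMT library 2 (37.0 FPKM, with 13.2 FPKM of Krt18) and HS library 2 (33.6 FPKM, with 13.1 FPKM of Krt18). Those genes summed to 4.07 to 10.7 FPKM in HS_AOS kidneys and to 5.96 to 67.1 FPKM in HS kidneys, and all 7 that were tested had a log2 change below 0 in HS_AOS, with 0 called by limma and 1 at an unadjusted p under 0.05. Their part in the Krt18 values was not tested.

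**Figure D3:**
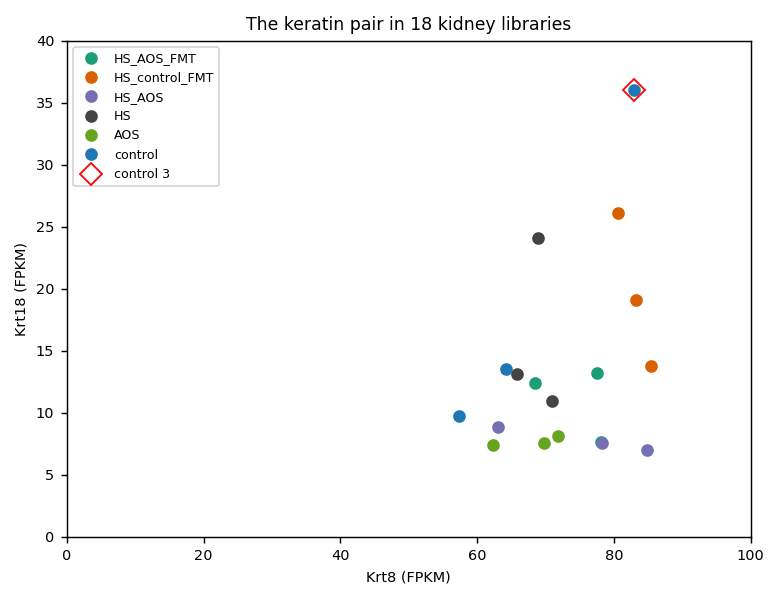
Each point is 1 library, with Krt8 FPKM on the horizontal and Krt18 FPKM on the vertical axis, coloured by group, with control 3 ringed in red. Krt8 spans 57.3 to 85.4 FPKM and Krt18 6.99 to 36.0 FPKM, and the HS_AOS and AOS points lie along the bottom, under 9 FPKM of Krt18.

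For the effect of the control transfer, HS_control_FMT was set against HS. Of the 9 tested members 1, Tnfrsf12a, was called higher by limma, where 0.46% of all tested genes were, and 0 were called lower. Tnfrsf12a, Clu and Krt8 were higher without overlap (3 of 9, where 6.53% of all tested genes were), and 2 had an unadjusted p under 0.05, where 15.2% of all tested genes did. The members' median change was 0.27, against -0.08 over all tested genes. Of 38 other tested injury and failed repair genes, from a list of 42, limma called 0, with an unadjusted p under 0.05 for 6 that were higher and 2 that were lower.

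For the transfers set against each other, HS_AOS_FMT was compared with HS_control_FMT. Limma called 1 member lower, Tnfrsf12a, where 1.09% of all tested genes were called lower, and 2 with Clu when control 3 was left out, where 9.3% of all tested genes passed. Tnfrsf12a, Clu, Krt8 and Krt18 were lower without overlap (4 of 9, where 7.56% of all tested genes were). The members' median change was -0.38, against 0.07 over all tested genes. Limma called 0 of 38 other injury genes with all libraries. Without control 3 it called 4 of them lower, namely S100a11, Gdf15, Sox4 and Cd24a, where 9.3% of all tested genes passed in either direction. S100a11, a calcium-binding protein, averaged 195 ± 17.3 FPKM in HS_AOS_FMT and 293 ± 21.2 FPKM in HS_control_FMT kidneys (SD, n = 3 each), a change of -0.59 (limma adjusted p 0.256, and 0.0172 without control 3). Among 18 healthy proximal tubule genes limma called 1, where 494 of all 12385 tested genes were called in either direction. That gene, Slc6a19, the neutral amino acid transporter, rose to 115 ± 36 FPKM in HS_AOS_FMT kidneys, against 48.9 ± 3.96 FPKM in HS_control_FMT kidneys (SD, n = 3 each; log2 1.17, limma adjusted p 0.0424). Slc6a19 passed in 8 of 18 alternatives (adjusted p 0.00331 to 0.156), and the call was lost without HS_AOS_FMT 1, HS_AOS_FMT 2 or any 1 of the HS_control_FMT libraries. The 494 genes called over the whole table went to between 65 and 259 as single libraries of these groups were left out, and to 1143 without control 3.

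HS_AOS_FMT kidneys set against HS gave no member call by limma, where 0.977% of all tested genes passed, 1 member with an unadjusted p under 0.05 where 18.1% of all tested genes did, and 0 without overlap (29.5% of all tested genes had none). The members' median change was -0.22, against 0.00 over all tested genes. Tnfrsf12a, the member nearest to a call, had 31.8 ± 6.79 FPKM in HS_AOS_FMT and 47.2 ± 14.6 FPKM in HS kidneys (SD, n = 3 each). The 121 genes called over the whole table went to 0 without HS 3, HS_AOS_FMT 2 or HS_AOS_FMT 3, to 2 without HS 2 and to 619 without control 3.

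AOS given directly to mice with the diet and STZ was tested as HS_AOS against HS. Limma called 0 members, where 2.3% of all tested genes passed, and 2 had an unadjusted p under 0.05, where 20.3% of all tested genes did. The 285 genes called over the whole table went to 0 without HS 2, without HS 3 or without the 3 adrenal-rich libraries, to 1 with the GC content and length trend removed, and to 789 without HS_AOS 1. Lcn2, Clu and Krt18 were lower in HS_AOS without overlap (3 of 9, where 11.1% of all tested genes were). The members' median change was -0.26, against 0.01 over all tested genes. Of the 38 other injury genes 33 had a log2 change below 0, with a median of -0.38, and limma called 0 (3 were lower at an unadjusted p under 0.05). All 10 thick ascending limb genes also had a log2 change below 0, with a median of -0.35, and limma called 0 (2 were lower at an unadjusted p under 0.05). Their FPKM summed to 856 to 1071 in HS_AOS kidneys and to 1154 to 1580 in HS kidneys, without overlap, and their part in the injury genes was not tested. Without control 3 limma called 4 of the 38 injury genes lower, Krt7, S100a11, Gdf15 and Sox4, where 6.74% of all tested genes passed in either direction, and 1 of the 10 thick ascending limb genes. Krt7, a keratin of ducts and urothelium, averaged 32.7 ± 5.43 FPKM in HS_AOS and 50.7 ± 9.13 FPKM in HS kidneys (SD, n = 3 each; log2 -0.61, limma adjusted p 0.149, and 0.0474 without control 3). Among 15 tested ligands, receptors and partners of the members, Itgav, the integrin chain that binds osteopontin, rose to 29.7 ± 2.88 FPKM in HS_AOS kidneys, against 19.5 ± 4.01 FPKM in HS kidneys (SD, n = 3 each; log2 0.60, limma adjusted p 0.0393). Itgav passed in 7 of 18 alternatives (log2 0.41 to 0.75, adjusted p 0.0103 to 0.273). The call was lost when HS 2, HS 3, HS_AOS 2 or HS_AOS 3 was left out, when the GC content and length trend was removed, and when the adrenal-rich libraries were left out.

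**Figure D4:**
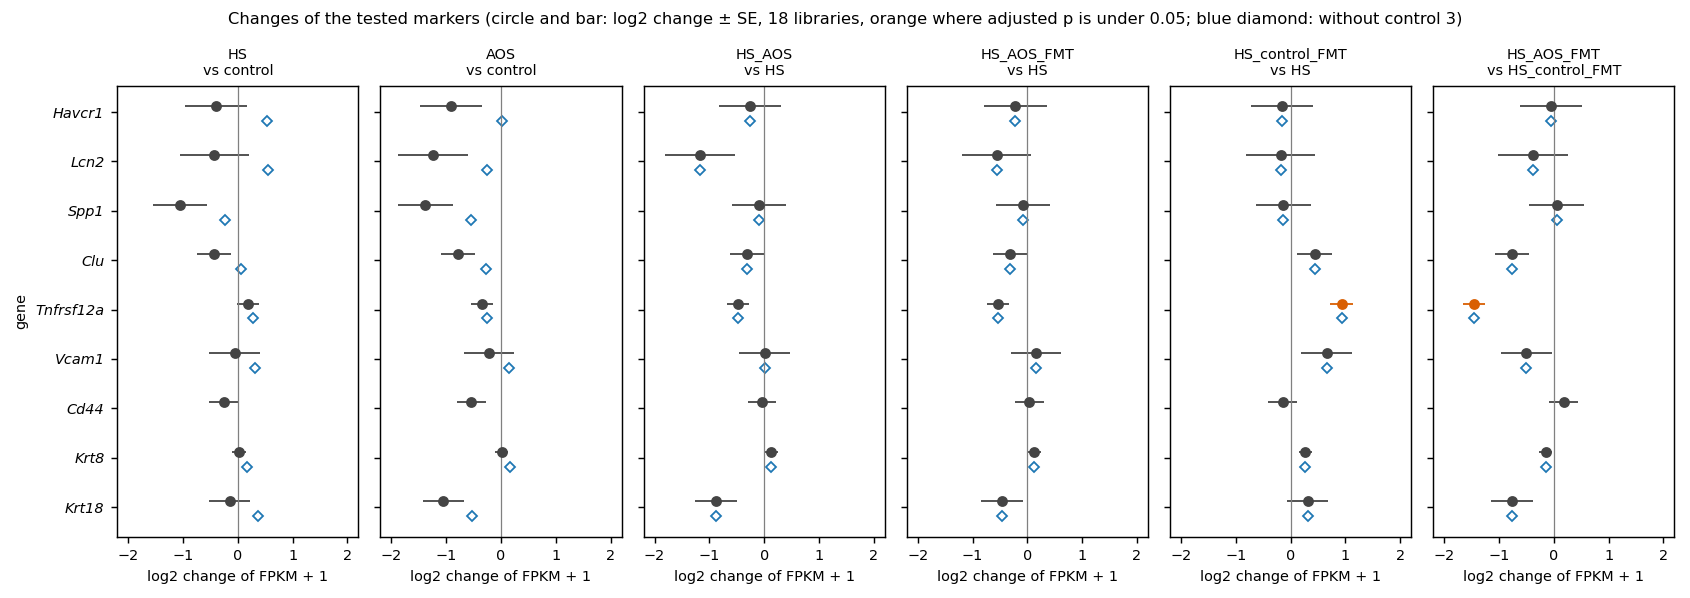
Each panel is 1 comparison and each row 1 tested member, with the log2 change of FPKM + 1 and its SE over 18 libraries as circle and bar, and the change without control 3 as a blue diamond. Tnfrsf12a is coloured at 0.93 in HS_control_FMT vs HS and at -1.46 in HS_AOS_FMT vs HS_control_FMT, and the diamonds leave the circles in the comparisons with control.

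HS against control, which differ in the diet and STZ by their labels, gave 0 member calls by limma, where 0.0646% of all tested genes passed. In it 1 member, Spp1, had an unadjusted p under 0.05, where 6.63% of all tested genes did. Of the 8 genes called over the whole table, 5 were the testis and germ cell genes that the control libraries held. No member was without overlap (8.53% of all tested genes were). Control 3 set the direction of several members. With it the change was -0.43 for Lcn2, -0.43 for Clu and -0.15 for Krt18, and without it 0.55, 0.06 and 0.37, none of them called (0.0488% of all tested genes passed without it). Spp1 was at -1.06 with control 3 and -0.23 without it. The members' median was -0.26 with control 3, against 0.00 over all tested genes, and 0.29 without it. Gdf15, a stress-induced cytokine from the list of other injury genes, averaged 17.7 ± 2.88 FPKM in HS and 12.3 ± 13.8 FPKM in control kidneys (SD, n = 3 each), with a limma adjusted p of 0.763, and of 0.015 at a log2 change of 1.81 without control 3.

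AOS against control gave 0 member calls by limma, where 0.0646% of all tested genes passed, and 3 members with an unadjusted p under 0.05, where 7.28% of all tested genes did. Here too 5 of the 8 genes called over the whole table were testis and germ cell genes. Cd44 and Krt18 were lower in AOS without overlap (2 of 9, where 10.1% of all tested genes were). The members' median was -0.78 with control 3, against -0.09 over all tested genes, and -0.26 without it. A difference between the AOS effect in HS and that in control mice was called for 0 members by limma, where 0.0727% of all tested genes passed, and 0 had an unadjusted p under 0.05, where 15% of all tested genes did. Testis and germ cell genes were 5 of the 9 called for that difference over the whole table.

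The remaining comparisons set groups with the diet and STZ against control. HS_AOS_FMT and HS_AOS gave 0 member calls by limma, where 0.46% and 2.87% of all tested genes passed, and 2 and 4 members had an unadjusted p under 0.05, where 15.4% and 18.3% of all tested genes did. In HS_AOS_FMT no member was without overlap (17.9% of all tested genes were), and in HS_AOS Krt18 was, lower (6.95% of all tested genes were). HS_control_FMT gave 1 call, Tnfrsf12a, higher, where 1.47% of all tested genes were called higher, and Tnfrsf12a was also the member higher without overlap (5.73% of all tested genes were). Without control 3 it gave 2, with Krt8, where 3.11% of all tested genes passed. Among the other injury genes called in that comparison, Atf3, a stress-induced transcription factor, averaged 17.2 ± 10.9 FPKM in HS_control_FMT and 1.38 ± 1.55 FPKM in control kidneys (SD, n = 3 each; log2 2.96, limma adjusted p 0.017). The Atf3 call was lost without HS_control_FMT 2 (adjusted p 0.0723) and without control 1 (0.056). In HS_AOS against control, Krt7 and Plau, the urokinase gene, were called lower (log2 -0.99 and -1.07, limma adjusted p 0.0348 and 0.027). Krt7 passed in 10 of 17 alternatives (adjusted p 0.022 to 0.443), lost without HS_AOS 2, HS_AOS 3 or control 1. Plau passed in 12 of 17 (adjusted p 0.0171 to 0.324), lost without control 2 or any 1 of the HS_AOS libraries. Limma also called 3 of the 10 thick ascending limb genes lower in HS_AOS than in control. These were Umod, Egf and Bsnd (log2 -1.45, -0.70 and -0.76, limma adjusted p 0.0256, 0.0256 and 0.0165). All 10 had a log2 change below 0 (median -0.73, against 0.01 over all tested genes), and 8 had an unadjusted p under 0.05. Their part in the Krt7 and Plau values was not tested.

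Over all 6 groups at once, limma's F test called 1 of the 9 members, Tnfrsf12a (adjusted p 0.00445), where 8.21% of all tested genes passed. Without control 3 it called 3, with Clu (adjusted p 0.0346) and Krt18 (adjusted p 0.0259), where 20.4% passed. Tnfsf12, the gene of TWEAK, the ligand of the Tnfrsf12a receptor, was between 10.2 and 20.7 FPKM in all 18 libraries, with 11.98, 14.3 and 10.2 FPKM in HS_control_FMT and 11.3, 15.8 and 13.4 FPKM in HS kidneys.

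Genes with the pattern most like each member were ranked by the mean absolute difference of log2(FPKM + 1), standardized over the 17 libraries without control 3, among 12004 genes with a settled symbol. Nearest to Tnfrsf12a were Tgif1, a homeobox repressor (0.345 SD), and Hmox1, heme oxygenase (0.365 SD), where the median gene lay at 1.14 SD. Hmox1 was at 35.3, 30.6 and 34.1 FPKM in HS_AOS_FMT, 199, 148 and 139 FPKM in HS_control_FMT and 56.1, 56.6 and 66.6 FPKM in HS kidneys. Nearest to Clu were Slc16a5 (0.387 SD) and Hmox1 (0.418 SD), with Tnfrsf12a in place 3 (0.443 SD). Vcam1 was nearest to Ciita, the master regulator of MHC class II genes, and Tlr2, a receptor for bacterial lipoproteins, at 0.324 and 0.343 SD. These genes also peaked in HS_control_FMT library 2, Ciita at 3.49 FPKM and Tlr2 at 8.76 FPKM.

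Krt18 was nearest to Rhou, a small GTPase (0.277 SD), and Plet1, a surface protein of epithelia (0.314 SD), and Krt8 to Tns2 and Actr8 (0.37 and 0.379 SD). The keratin partners were not near each other: the member most like Krt18 was Clu, in place 191, and that most like Krt8 was Tnfrsf12a, in place 1537. Lcn2 was nearest to the ribosomal gene Rps27 (0.402 SD) and to Krt7 (0.452 SD). Havcr1 was nearest to the glutamine transporter gene Slc38a3 and to Dpysl3 (0.514 and 0.527 SD), Spp1 to Rap1gap2 and Gnaz (0.492 and 0.499 SD) and Cd44 to Ccnd2 and Slit3 (0.41 and 0.441 SD). With control 3 included, a choice made after seeing the data, both genes stayed the same for Vcam1, neither did for Havcr1 and Cd44, and 1 of the 2 did for the other 6 members, Hmox1 being that of Tnfrsf12a. Hmox1 was not among the nearest 2 to Tnfrsf12a after quantile normalization (Nfkb2 and Tgif1) or without the 3 adrenal-rich libraries (Slitrk6 and Tgif1). Both genes changed for Havcr1, Spp1 and Cd44 after quantile normalization, and for Spp1, Clu and Cd44 without the adrenal-rich libraries. All distances come from the same 17 libraries and are given as a description, with no test.

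**Figure D5:**
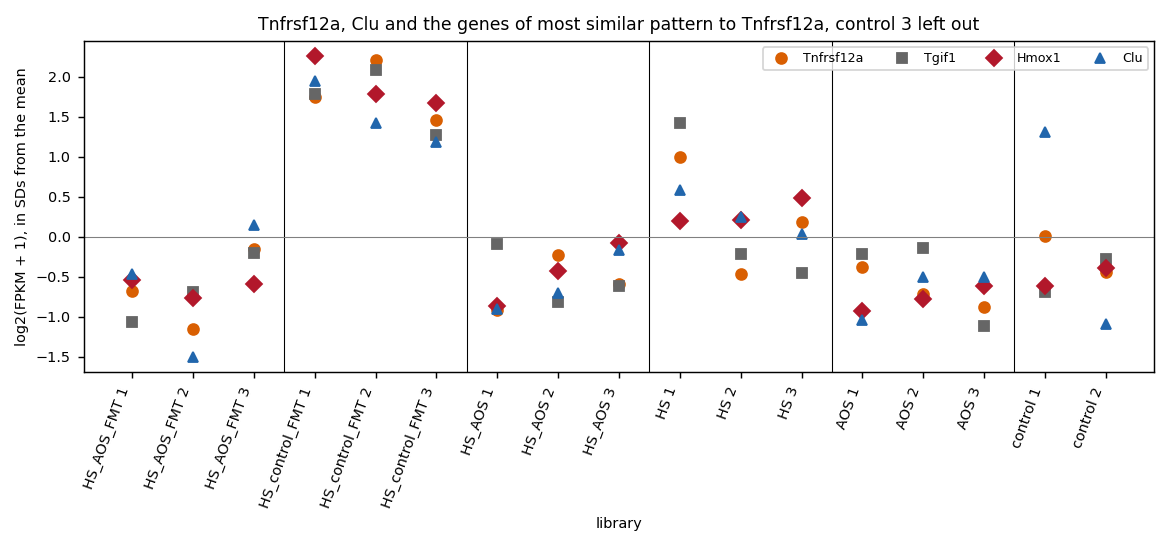
Each point is the log2(FPKM + 1) of Tnfrsf12a, Tgif1, Hmox1 or Clu in 1 of 17 libraries (control 3 left out), in SDs from that gene's mean over the 17 libraries. All 4 genes lie above the mean by at least 1 SD in the 3 HS_control_FMT libraries, and no other group has all of its points above the mean for all 4.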

How the data were processed

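The authors deposited 1 table of FPKM for 18 libraries. The unit was read from the values: FPKM times transcript length summed to nearly equal totals per library (CV 0.93%, against 4.29% for plain sums). Bowtie 0.12.2 and mm10 are named per the submitters' processing notes; not given in the sources used here were the counting program, annotation, strandedness and filters. Kept were the 12385 genes that reached 1 FPKM in 3 or more of the 18 libraries (7160 left out), and log2(FPKM + 1) was fitted with limma 3.58.1 in R 4.3.3 (trend and robust options, 1 mean per group, 12 residual degrees of freedom, Benjamini-Hochberg over all kept genes, threshold 0.05), after being tested on simulated data. The members, gene lists and tests were chosen with earlier results of these data known. Text names all 10 members, at most 4 called genes a list and the 2 nearest patterns, without predicted symbols; Tnfsf12, Itga4, Ly6g, Elane, Mpo and the genes called only without control 3 were named after their values were seen. Coordinates are GENCODE M21 (GRCm38), promoters RefSeq (GRCm38.p6). Alternatives were quantile normalization, pseudocount 0.1, no filter or 5 FPKM, no trend, the compared groups alone, a replicate block, a GC content and length trend removed, and left-out libraries. No column of other samples was in the table. A called gene of the injury list is not reported here.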

Additional observations from a re-analysis of the deposited data

Results flagged for a closer look

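The change of Tnfrsf12a against HS differed between the transfers. It was -0.53 under the AOS transfer (HS_AOS_FMT) and 0.93 under the control transfer (HS_control_FMT), a difference of -1.46 on the log2 scale. HS drops out of that difference, so the limma test of HS_AOS_FMT against HS_control_FMT tests it (adjusted p 0.00341), and all 3 HS_AOS_FMT libraries were below all 3 HS_control_FMT libraries. What sets the groups apart besides the transfer was not tested.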

How the results depend on the processing

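Tnfrsf12a in HS_AOS_FMT against HS_control_FMT passed in all 18 alternatives (log2 -1.61 to -1.32, limma adjusted p 0.0016 to 0.0268). Against control, HS_control_FMT passed for Tnfrsf12a in 15 of 17 alternatives (log2 0.99 to 1.21, adjusted p 0.00596 to 0.0991), and against HS in 6 of 18 (log2 0.72 to 1.16, adjusted p 0.0277 to 0.157). The count of members called in HS_control_FMT against HS fell to 0 with a replicate block (adjusted p 0.0741 for Tnfrsf12a; with or without the GC content and length trend removed), without the trend option, with no filter, with the compared groups alone, without the 3 adrenal-rich libraries and without control 3 and HS_control_FMT 2 together, and ran from 0 to 1 as single libraries were left out, lost without HS 2, HS 3 or any HS_control_FMT library. The median correlation of deviations from the group means was -0.00898 over 45 same-numbered pairs (-0.356 to 0.312). Over 90 other pairs it was 0.011 (-0.48 to 0.435). Same-numbered libraries were thus no more alike in the median, which does not settle whether some of them were paired. The block changed no other count of members called. Over the whole table it lowered the genes called from 494 to 276 in HS_AOS_FMT against HS_control_FMT. In HS_AOS against HS they went from 285 to 89. Leaving out control 3, and leaving out it and HS_control_FMT 2, gave 2 calls in HS_AOS_FMT against HS_control_FMT (Clu and Tnfrsf12a). HS_control_FMT against control gave 0 calls with the compared groups alone and without control 3 and HS_control_FMT 2, and 1 to 2 as single libraries were left out (Spp1 added without control 1, Krt8 without control 3). HS_AOS and HS_AOS_FMT against control gave 0 to 1 (Clu without control 2). The 6-group test gave 1 to 3 as single libraries were left out (Spp1 added without control 1, Clu without control 2, Clu and Krt18 without control 3), and 2 without the adrenal-rich libraries (Krt18 added). The causes were not tested. The alternatives that leave out control 3 from every comparison, alone or with HS_control_FMT 2, were chosen after seeing the data. No read counts are in the table, so depth limits could not be set; Sox9 and Cd44 lie near or under 1 FPKM.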
